A study of Mus musculus with 14 samples.

Results

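Prostaglandins are short-lived lipid signals made from arachidonic acid, which phospholipase A2 releases from membranes. The cyclooxygenases, encoded by Ptgs1 and Ptgs2, turn it into prostaglandin H2, and terminal synthases make the separate prostaglandins from that. The products leave the cell, act on receptors of the same or nearby cells, and are inactivated by 15-hydroxyprostaglandin dehydrogenase, the product of Hpgd. In the kidney they adjust blood flow, renin release, and the handling of salt and water, and ureteral obstruction is a classical setting of raised renal prostaglandin output.

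Described here are 10 genes of this pathway, chosen by symbol: the cyclooxygenases Ptgs1 and Ptgs2, the synthases Ptges, Ptgds and Ptgis, the inactivating enzyme Hpgd, and the receptors Ptger1, Ptger3, Ptger4 and Ptgfr. All 10 were found among the 47729 genes listed per library, and all 10 passed the filter on low counts. Messenger RNA of whole mouse kidney was counted in 14 libraries to ask how the kidney responds to unilateral ureteral obstruction (UUO, closure of the ureter of 1 kidney) and how that response compares between genotype labels. There were 4 libraries of SMOC2 transgenic kidney after 7 days of UUO, 3 of SMOC2 transgenic kidney without treatment (normal), 4 of wild-type (WT) kidney after 7 days of UUO and 3 of untreated WT kidney. The labels used here do not state the promoter of the transgene or whether each library is a separate animal. A treatment protocol attached to the samples describes folic acid in male Balb/c mice, which differs from the UUO labels, and the groups follow the sample titles, treatment labels and design. Where libraries share an animal, the spread behind a p-value is technical.

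Total counts ran from 19483994 to 30033405 per library. Smoc2, the gene of the transgene, was at 96.1 ± 18.5 CPM (SD, n = 4) in SMOC2 UUO and 147 ± 11.4 CPM (SD, n = 4) in WT UUO kidney. In normal kidney it was at 21.8 ± 9.66 CPM in SMOC2 and 25.2 ± 16.1 CPM in WT libraries (SD, n = 3 each). The counts show no excess of Smoc2 in the libraries labelled SMOC2. In UUO kidney Smoc2 was lower in them, at 83.9 to 123.6 CPM against 130.8 to 157.7 CPM in WT libraries. Each direction between genotypes is therefore one between labels. Levels in CPM are counts relative to the scaled size of the library. The summed CPM of 6 proximal tubule markers was 15230 to 18500 in SMOC2 normal and 12970 to 16210 in WT normal libraries, so the main epithelium of the kidney was present in all of them.

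The promoter windows of 4 members from both sides of the UUO response follow, to show the sequence at their RefSeq transcription starts. Ptgs2 and Ptger4 were higher in UUO kidney, and Hpgd and Ptger3 were lower. Each runs 5′ to 3′ on the gene's strand, from 250 bases before to 50 bases after the RefSeq start, on build GRCm38.p6 (the mm10 assembly). The windows are chr1:150099781-150100080 on the plus strand for Ptgs2, chr15:5244138-5244437 on the minus strand for Ptger4, chr8:56294302-56294601 on the plus strand for Hpgd and chr3:157566626-157566925 on the plus strand for Ptger3. Capitals mark matches, on either strand, to the motifs named in the next paragraph.
Ptgs2: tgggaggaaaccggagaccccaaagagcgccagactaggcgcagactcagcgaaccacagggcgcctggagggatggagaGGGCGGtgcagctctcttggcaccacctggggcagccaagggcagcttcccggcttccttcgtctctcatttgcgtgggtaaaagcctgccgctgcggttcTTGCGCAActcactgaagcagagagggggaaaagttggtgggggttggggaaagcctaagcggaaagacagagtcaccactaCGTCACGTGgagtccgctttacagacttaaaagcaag
Ptger4: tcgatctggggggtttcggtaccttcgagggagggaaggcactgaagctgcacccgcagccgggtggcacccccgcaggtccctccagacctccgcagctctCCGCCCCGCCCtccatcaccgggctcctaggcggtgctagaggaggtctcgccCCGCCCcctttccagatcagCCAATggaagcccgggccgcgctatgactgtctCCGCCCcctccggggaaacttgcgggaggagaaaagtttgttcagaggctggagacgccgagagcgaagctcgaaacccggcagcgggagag
Hpgd: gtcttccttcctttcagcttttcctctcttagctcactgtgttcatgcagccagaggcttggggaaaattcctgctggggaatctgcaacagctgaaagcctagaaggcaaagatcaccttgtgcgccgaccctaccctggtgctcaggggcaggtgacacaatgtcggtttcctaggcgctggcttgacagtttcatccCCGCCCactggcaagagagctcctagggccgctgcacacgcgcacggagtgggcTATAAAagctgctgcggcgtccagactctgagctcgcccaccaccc
Ptger3: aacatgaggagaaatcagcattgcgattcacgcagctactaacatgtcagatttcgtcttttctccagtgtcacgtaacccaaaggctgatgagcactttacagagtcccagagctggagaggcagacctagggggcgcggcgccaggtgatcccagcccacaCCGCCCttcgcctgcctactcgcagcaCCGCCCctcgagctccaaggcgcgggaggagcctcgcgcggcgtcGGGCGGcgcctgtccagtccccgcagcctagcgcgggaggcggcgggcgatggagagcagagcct

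The motifs searched on both strands were the TATA box (TATAAA), the CCAAT box (CCAAT), the GC box (GGGCGG), the E-box (CACGTG), the half-site of the cAMP response element (TGACG), the C/EBP site (TTGCGCAA) and the AP-1 site (TGANTCA). RefSeq gave a window for 8 of the 10 members. Positions are counted from the start as +1. The Ptgs2 window holds a C/EBP match from -69 to -62, a sequence that 0.183% of 32851 promoter windows hold. It also holds a GC box from -170 to -165, a half-site from +14 to +18 and an E-box from +17 to +22, and the last pair overlap. A half-site is present in 20.8% and an E-box in 7.15% of all windows. The Ptger4 window holds a CCAAT box from -75 to -71 and GC boxes at -148, -143, -95 and -42, of which the first pair share a base. In Ptger3 the matches are GC boxes at -87, -60 and -15. Hpgd has a GC box at -50 and a TATA box from +5 to +10 of the RefSeq start. The GENCODE M21 annotation starts Hpgd at 56294585 and Ptger3 at 157566892, downstream of the RefSeq starts used here. The TATA match of Hpgd lies after its RefSeq start and before its GENCODE start. GC boxes occur in 35.7%, CCAAT boxes in 37.4% and TATA boxes in 13.6% of all windows, so these matches are common. Of the other members, Ptgds holds an AP-1 match from -35 to -29, present in 7.81% of windows, and Ptges and Ptgfr hold GC boxes. For Ptgds, Ptges and Ptgfr the GENCODE start lies upstream of the RefSeq one. A match describes letters in the window and no factor was measured there.

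Seen as a whole, the RNA of the pathway shifted in composition after 7 days of UUO. Ptgs2, Ptgds and Ptger4 rose and Hpgd, Ptger3 and Ptgfr fell in both genotype labels. Ptgs1 rose in WT alone and Ptgis rose and Ptger1 fell in SMOC2 alone at the threshold, with no difference between the responses of the 2 labels passing the test. Ptges, the inducible synthase of prostaglandin E2, passed in neither. By edgeR's quasi-likelihood test at a Benjamini-Hochberg adjusted p under 0.05, 4 members were higher and 4 lower in SMOC2 UUO against SMOC2 normal kidney, and 4 were higher and 3 lower in WT UUO against WT normal kidney. Over all 17926 genes tested, 62.8% were called in SMOC2 (32.5% higher and 30.4% lower) and 61.1% in WT (31.3% higher and 29.8% lower). Of the genes called, 51.6% in SMOC2 and 51.2% in WT were higher after UUO, against 78.7% in both labels when libraries are scaled by their totals alone. The 8 of 10 members called in SMOC2 and 7 of 10 in WT are near that background, and the count alone is no result about these genes. The median log2 fold change of the 10 members was 0.20 in SMOC2 and 0.34 in WT, beside 0.04 in SMOC2 and 0.05 in WT over all genes.

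**Figure D1:**
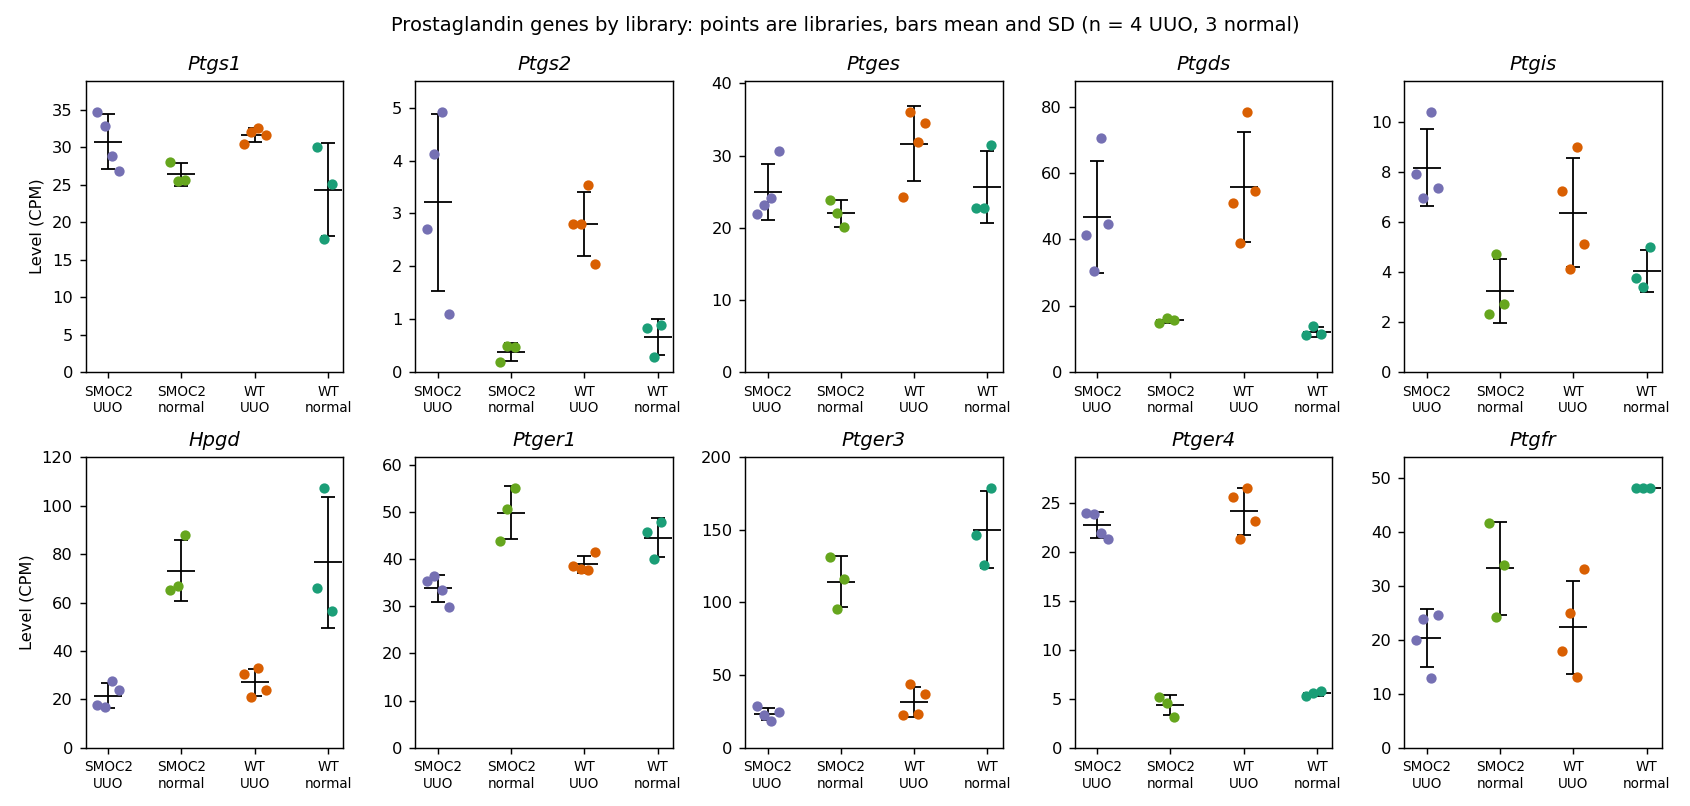
Level of each of the 10 genes in CPM (y axis, linear, from 0) in every library by group, with the mean and SD as bars (n = 4 UUO and 3 normal libraries per label). Ptgs2, Ptgds and Ptger4 sit higher and Hpgd and Ptger3 lower in every UUO library than in any normal library of the same label.

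Ptgs1 encodes cyclooxygenase 1, the constitutive enzyme, which the kidney makes mainly in collecting ducts, medullary interstitial cells and vessels. It was at 34.6, 32.8, 28.7 and 26.8 CPM in the 4 SMOC2 UUO libraries, against 28.1, 25.4 and 25.6 CPM in the 3 SMOC2 normal libraries. In WT it was at 30.4, 32.0, 32.5 and 31.6 CPM after UUO, against 30.0, 17.7 and 25.1 CPM in normal kidney. The WT groups did not overlap, though the lowest UUO library lay just above the highest normal one. The SMOC2 groups overlapped. The log2 fold change was 0.22 in SMOC2 (SE 0.14, edgeR adjusted p = 0.183) and 0.38 in WT (SE 0.14, edgeR adjusted p = 0.0317). The WT call was lost without WT normal library 2, the lowest, at a log2 fold change of 0.20 (edgeR adjusted p = 0.152). It was also lost without WT normal library 3, without WT UUO library 3 or 4, and with only the WT libraries in the fit. In SMOC2 a call was gained under upper-quartile scaling (log2 0.34) and with library totals alone (log2 0.72).

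Ptgs2 encodes cyclooxygenase 2, the inducible enzyme, which the kidney makes at the macula densa, in the thick limb and in medullary interstitial cells. Its level was 2.71, 4.12, 4.91 and 1.10 CPM in SMOC2 UUO libraries, against 0.188, 0.499 and 0.469 CPM in SMOC2 normal libraries. In WT it was 2.80, 2.79, 3.54 and 2.05 CPM after UUO, against 0.838, 0.280 and 0.896 CPM in normal kidney. Every UUO library lay above every normal library of its label, and the spread among SMOC2 UUO libraries was the widest. The gene (chr1:150100031-150108227, plus strand) rose 8.12-fold in SMOC2 (log2 3.02, SE 0.54, edgeR adjusted p = 2.42e-04) and 4.05-fold in WT (log2 2.02, SE 0.49, edgeR adjusted p = 0.00260). These levels rest on few reads, with 27 to 139 counts per SMOC2 UUO, 3 to 9 per SMOC2 normal, 48 to 100 per WT UUO and 5 to 23 per WT normal library. In whole kidney, fewer cells of a type and less RNA per cell cannot be told apart, and the same holds for more.

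Set per base of exon, Ptgs1 RNA exceeded Ptgs2 RNA in every library. The ratio of Ptgs1 to Ptgs2, which does not depend on how libraries are scaled, had a median of 12.2 (6.90 to 28.8) in SMOC2 UUO and 64.3 (60.0 to 176) in SMOC2 normal libraries. It was 13.1 (10.9 to 18.2) in WT UUO and 42.3 (33.1 to 74.8) in WT normal libraries. The ranges of UUO and normal libraries did not overlap in either label, so Ptgs2 made up a larger share of cyclooxygenase RNA after UUO while remaining the smaller one. These ratios were chosen with the values known and carry no test.

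Of the 3 synthases among the members, Ptgds had the largest fold change in both labels. Ptgds encodes the lipocalin-type prostaglandin D2 synthase, a secreted protein that also appears in urine. It was at 41.4, 30.4, 70.5 and 44.7 CPM in SMOC2 UUO libraries, against 14.7, 16.3 and 15.7 CPM in SMOC2 normal libraries. WT libraries had 51.1, 38.9, 78.4 and 54.7 CPM after UUO, against 11.02, 13.9 and 11.4 CPM in normal kidney. No UUO library overlapped the normal libraries of its label, and the normal libraries lay close together while the UUO libraries spread widely. Ptgds (chr2:25466709-25470046, minus strand) rose 3.001-fold in SMOC2 (log2 1.59, SE 0.27, edgeR adjusted p = 1.29e-04) and 4.62-fold in WT (log2 2.21, SE 0.27, edgeR adjusted p = 8.30e-06).

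Ptgis encodes prostacyclin synthase, a cytochrome P450 of vessel walls and stromal cells. Its level was 7.94, 6.97, 10.4 and 7.35 CPM in SMOC2 UUO libraries, against 2.32, 4.72 and 2.71 CPM in SMOC2 normal libraries. In WT it was 7.26, 4.14, 8.98 and 5.13 CPM after UUO, against 3.75, 3.41 and 4.99 CPM in normal kidney. The SMOC2 groups were apart and the WT groups overlapped through WT UUO library 2. Ptgis rose 2.51-fold in SMOC2 (log2 1.33, SE 0.30, edgeR adjusted p = 0.00151). The WT difference was 0.65 on the log2 scale (95% interval 0.03 to 1.27) and missed the threshold (edgeR adjusted p = 0.0666). It passed without WT UUO library 2 or SMOC2 normal library 3, under DESeq2 (adjusted p = 0.0449), under upper-quartile scaling and with library totals alone (log2 1.124).

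Ptges encodes microsomal prostaglandin E synthase 1, which works beside cyclooxygenase 2 in inflammation and is made in collecting ducts. It ranged from 21.9 to 30.7 CPM in SMOC2 UUO and from 20.1 to 23.9 CPM in SMOC2 normal libraries, and from 24.2 to 36.0 CPM in WT UUO and 22.7 to 31.4 CPM in WT normal libraries. The groups overlapped in both labels. The log2 fold change was 0.18 in SMOC2 (95% interval -0.16 to 0.53, edgeR adjusted p = 0.334) and 0.30 in WT (95% interval -0.04 to 0.64, edgeR adjusted p = 0.113). Both intervals end below 1 on the log2 scale. The intervals of Ptgs2 ran from 1.85 to 4.19 in SMOC2 and from 0.96 to 3.07 in WT. The WT difference passed without WT normal library 3 or WT UUO library 1 and under upper-quartile scaling (log2 0.41). Scaled by library totals alone, which moves the median of all genes to 0.54 in SMOC2 and 0.52 in WT, Ptges passed as higher at 0.68 in SMOC2 and 0.77 in WT.

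**Figure D2:**
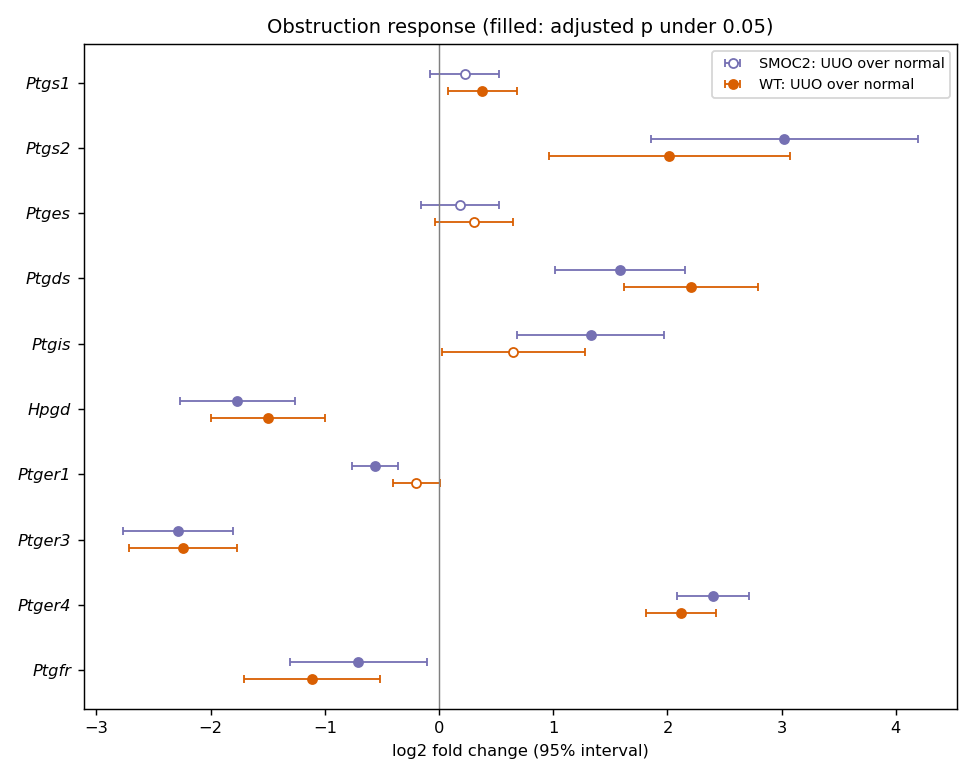
Log2 fold change of UUO over normal kidney (x axis) with its 95% interval for each gene in SMOC2 (upper point) and WT (lower point) libraries, filled where the adjusted p was under 0.05. The points run from -2.28 for Ptger3 to 3.02 for Ptgs2, both in SMOC2, and only Ptges is open in both labels.

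Hpgd encodes the dehydrogenase that inactivates prostaglandins, and it fell. Its level was 17.8, 16.8, 27.6 and 24.1 CPM in SMOC2 UUO libraries, against 65.2, 66.8 and 87.7 CPM in SMOC2 normal libraries. WT libraries were at 30.4, 20.8, 33.1 and 24.0 CPM after UUO, against 65.9, 107 and 56.5 CPM in normal kidney. Every UUO library was below every normal library of its label, and WT normal library 2 was the highest of all. The fold change of Hpgd (chr8:56294585-56321043, plus strand) was 0.294 in SMOC2 (log2 -1.77, SE 0.23, edgeR adjusted p = 1.55e-05) and 0.354 in WT (log2 -1.50, SE 0.23, edgeR adjusted p = 7.03e-05).

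Against the summed cyclooxygenase RNA of the same library, per base of exon, Hpgd stood at a median ratio of 1.52 (1.07 to 2.01) in SMOC2 UUO and 5.97 (5.34 to 7.80) in SMOC2 normal libraries. The ratio was 1.90 (1.399 to 2.15) in WT UUO and 5.04 (4.95 to 13.8) in WT normal libraries. The RNA of Hpgd relative to that of the cyclooxygenases was thus lower in all UUO libraries than in any normal one. The ratio leaves out the terminal synthases and the other inactivation genes. RNA ratios are not enzyme activities, and no prostaglandin was measured.

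The receptors split. Ptger3 and Ptger4 encode the EP3 and EP4 receptors of prostaglandin E2. EP3 couples mainly to the inhibitory G protein that lowers cAMP and is known from the thick ascending limb and collecting duct, and EP4 raises cAMP and is known from glomeruli, vessels and macrophages. Ptger3 was at 28.5, 22.4, 18.4 and 24.4 CPM in SMOC2 UUO libraries, against 131, 95.7 and 115.9 CPM in SMOC2 normal libraries. In WT it was at 22.7, 43.6, 23.5 and 37.1 CPM after UUO, against 146, 125.5 and 178.6 CPM in normal kidney. UUO and normal libraries were far apart in both labels. The fold change of Ptger3 (chr3:157566892-157645888, plus strand) was 0.205 in SMOC2 (log2 -2.28, SE 0.22, edgeR adjusted p = 8.60e-07) and 0.211 in WT (log2 -2.24, SE 0.22, edgeR adjusted p = 1.07e-06).

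Ptger4 went the other way. It was at 23.9, 23.8, 21.9 and 21.3 CPM in SMOC2 UUO libraries, against 5.20, 4.61 and 3.18 CPM in SMOC2 normal libraries. WT libraries had 25.5, 21.3, 26.5 and 23.1 CPM after UUO, against 5.25, 5.59 and 5.77 CPM in normal kidney. The libraries within each group lay close together, and all 8 UUO libraries stood well above all 6 normal ones. Ptger4 (chr15:5206661-5244187, minus strand) rose 5.27-fold in SMOC2 (log2 2.398, SE 0.15, edgeR adjusted p = 2.11e-08) and 4.35-fold in WT (log2 2.12, SE 0.14, edgeR adjusted p = 4.57e-08), the smallest adjusted p of the 10 members in both labels. Its exons share 15.3% of their bases with a pseudogene on the opposite strand that had 0 to 2 counts per library. They share 1.23% with the protein-coding gene Ttc33, also on the opposite strand, which had 370 to 877 counts per library. Other opposite-strand genes share 3.81% of the exon bases of Ptgs1, 6.08% of Ptgis and 4.85% of Ptgfr. The strand setting of the counting is not known, and its effect on these counts was not tested.

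Per base of exon, the ratio of Ptger3 to Ptger4 had a median of 1.22 (0.982 to 1.39) in SMOC2 UUO and 29.5 (24.3 to 42.7) in SMOC2 normal libraries. In WT it was 1.46 (1.04 to 2.397) in UUO and 32.5 (26.2 to 36.2) in normal libraries. EP3 RNA was thus many times the EP4 RNA in normal kidney, and the 2 were near parity after UUO, again with no overlap between UUO and normal libraries.

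**Figure D3:**
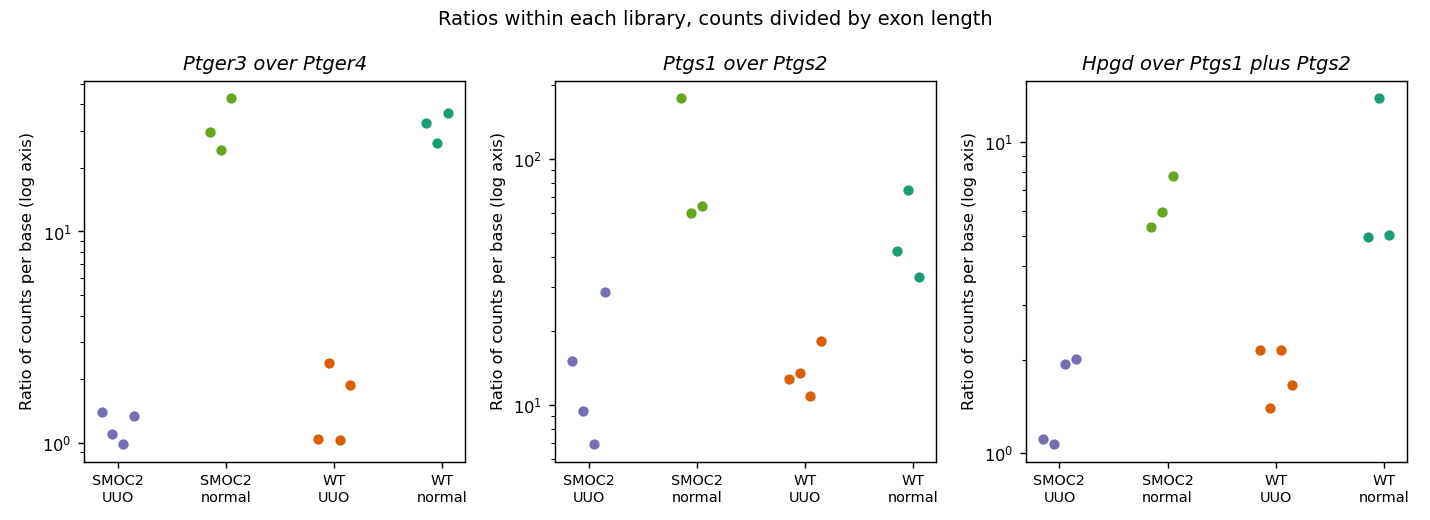
Ratio of counts per exon base within each library (y axis, log scale) for Ptger3 over Ptger4, Ptgs1 over Ptgs2, and Hpgd over the sum of Ptgs1 and Ptgs2, by group, with a point per library. All 3 ratios are lower in every UUO library than in every normal library, for example at most 2.397 against at least 24.3 for Ptger3 over Ptger4.

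Ptgfr encodes the receptor of prostaglandin F2 alpha, known in the kidney from the distal nephron. Its level was 20.01, 23.9, 12.8 and 24.6 CPM in SMOC2 UUO libraries, against 41.6, 24.3 and 33.8 CPM in SMOC2 normal libraries. In WT it was 18.0, 24.9, 13.1 and 33.1 CPM after UUO, against 48.1 CPM in each of the 3 normal libraries. The WT groups were apart, and the SMOC2 groups overlapped at SMOC2 normal library 3. The log2 fold change was -0.71 in SMOC2 (SE 0.28, edgeR adjusted p = 0.0394) and -1.11 in WT (SE 0.28, edgeR adjusted p = 0.00307). The SMOC2 call was lost without SMOC2 normal library 1 (log2 -0.52) or 4, without SMOC2 UUO library 1 or 3 (log2 -0.54 without the last), under upper-quartile scaling (adjusted p = 0.0703) and with library totals alone (log2 -0.21).

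Ptger1 encodes the EP1 receptor, which raises cell calcium and is known from the collecting duct. Its counts are uncertain, because the strand setting of the counting is not known. Ptger1 ranged from 30.0 to 36.4 CPM in SMOC2 UUO and from 44.0 to 55.1 CPM in SMOC2 normal libraries, which did not overlap. In WT it ranged from 37.7 to 41.5 CPM after UUO and from 40.1 to 48.0 CPM in normal kidney, which overlapped. The log2 fold change was -0.56 in SMOC2 (SE 0.09, edgeR adjusted p = 1.29e-04) and -0.20 in WT (SE 0.09, edgeR adjusted p = 0.0838). Without WT normal library 2 the WT difference was -0.27 and passed (edgeR adjusted p = 0.0353). Scaled by library totals alone, it was -0.06 in SMOC2 and missed the threshold, and 0.27 in WT with a call in the other direction, beside a median of all genes of 0.54 in SMOC2 and 0.52 in WT under that scaling.

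The order of levels changed with UUO. Measured in CPM per kilobase of exon, Hpgd was the highest member in normal kidney, at a mean of 43.5 in SMOC2 and 45.5 in WT, and Ptger3 was the second, at 20.1 in SMOC2 and 26.4 in WT. In UUO kidney Ptgds was the highest, at 28.3 in SMOC2 and 33.8 in WT, with Hpgd the second, at 12.8 in SMOC2 and 16.1 in WT. Ptgs2 was the lowest member in every group, at 0.701 in SMOC2 UUO, 0.0841 in SMOC2 normal, 0.610 in WT UUO and 0.147 in WT normal kidney. In all 4 groups, the ranges of the 2 highest members overlapped neither each other nor the third. In WT normal kidney, Ptger1, Ptgds, Ptgfr, Ptges and Ptgs1 followed with means from 8.17 to 6.25, and each overlapped its neighbour. In SMOC2 UUO kidney, Ptgs1, Ptges and Ptger1 formed 1 overlapping run, and Ptger3, Ptger4, Ptgis and Ptgfr another. Percentiles of the level per kilobase were taken among the tested genes that had an exon length. Ptgds stood at percentile 91.4 in SMOC2 UUO against 70.1 in SMOC2 normal kidney, and at 93.2 in WT UUO against 64.6 in WT normal kidney. Ptger3 stood at 50.2 in SMOC2 UUO against 83.9 in SMOC2 normal kidney, and at 57.8 in WT UUO against 88.3 in WT normal kidney.

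UUO libraries of the same label differed among themselves for several members. In both labels UUO library 3 had the highest Ptgds and Ptgis and the lowest Ptgfr of its group. WT UUO libraries 2 and 4 had the highest Ptger3 and Ptgfr of their group and the lowest Ptgis and Hpgd. The same 2 libraries had the highest sums of 4 thick ascending limb markers, at 3020 and 2654 CPM, against 1384 and 1785 CPM in WT UUO libraries 1 and 3. This was not particular to the thick limb. Their sums of proximal tubule markers were 2055 and 2767 CPM, against 1015 and 1027 CPM in libraries 1 and 3. Their distal convoluted tubule and intercalated cell sums were the highest of the group too, and their fibroblast and smooth muscle sums the lowest. The part of these markers in the members' values was not tested.

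Cell type markers moved with UUO beside the members. All 6 proximal tubule markers and 3 of 4 thick limb markers fell in both labels. The proximal tubule sum was 1734 to 2413 CPM in SMOC2 UUO against 15230 to 18500 CPM in SMOC2 normal, and 1015 to 2767 CPM in WT UUO against 12970 to 16210 CPM in WT normal libraries. The thick limb sum was 1246 to 2081 CPM in SMOC2 UUO against 5065 to 6543 CPM in SMOC2 normal, and 1384 to 3020 CPM in WT UUO against 7089 to 7998 CPM in WT normal libraries. Of 5 principal cell markers of the collecting duct, 4 fell and 1 rose in both labels, with sums of 72.6 to 152 CPM in SMOC2 UUO against 398 to 572 CPM in SMOC2 normal, and 146 to 272 CPM in WT UUO against 328 to 561 CPM in WT normal libraries. The thick limb and the collecting duct are segments in which Ptger3 is known, and the collecting duct one in which Ptger1 is known.

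All 6 fibroblast markers rose in both labels, with sums of 2617 to 3516 CPM in SMOC2 UUO against 123 to 247 CPM in SMOC2 normal, and 2038 to 3405 CPM in WT UUO against 162 to 415 CPM in WT normal libraries. Of 6 macrophage markers, 5 rose in SMOC2 and 6 in WT, with sums of 749 to 959 CPM in SMOC2 UUO against 181 to 244 CPM in SMOC2 normal, and 794 to 888 CPM in WT UUO against 179 to 217 CPM in WT normal libraries. Urothelial markers, of which 4 of 5 rose in both labels, summed to 32.1 to 123 CPM in SMOC2 UUO against 1.44 to 5.21 CPM in SMOC2 normal, and 13.8 to 247 CPM in WT UUO against 1.397 to 18.3 CPM in WT normal libraries. Of 4 smooth muscle markers, 3 rose in both labels. Of 6 endothelial markers, 1 rose and 3 fell in SMOC2, and 0 rose and 3 fell in WT. The endothelial sum was 375 to 404 CPM in SMOC2 UUO against 398 to 536 CPM in SMOC2 normal libraries. In WT it was 350 to 418 CPM after UUO against 431 to 586 CPM in normal kidney. Of 4 podocyte markers, 3 fell in both labels. The part of each of these cell types in the changes of Ptgs2, Ptgds, Ptgis, Hpgd and the receptors was not tested.

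Other genes of the pathway were followed in 5 lists of 41 genes, of which 34 passed the filter on low counts. In each label, 11 rose, 10 fell and 13 did not pass, near the share of all genes called, and the median log2 fold change was 0.05 in both, beside 0.04 in SMOC2 and 0.05 in WT over all genes. Of 9 phospholipases A2 tested, 3 rose and 2 fell in both labels. Pla2g4a, the cytosolic enzyme that frees arachidonic acid, rose to 25.1 ± 2.39 CPM in SMOC2 UUO, against 5.09 ± 1.01 CPM in SMOC2 normal kidney (log2 2.29, edgeR adjusted p = 8.12e-07). In WT it rose to 30.6 ± 6.06 CPM after UUO, against 8.56 ± 2.92 CPM in normal kidney (log2 1.83, edgeR adjusted p = 4.53e-06; SD, n = 4 UUO and 3 normal).

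Of 8 other synthesis genes, 2 rose and 4 fell in SMOC2, and 1 rose and 4 fell in WT. Akr1c18, Cbr1 and Prxl2b, named after their values were seen, fell furthest in both labels. On the log2 scale Akr1c18 was at -3.36 in SMOC2, with ranges overlapping, and at -3.21 in WT. Cbr1 was at -2.89 in SMOC2 and -2.50 in WT, and Prxl2b at -2.44 in SMOC2 and -1.44 in WT. Hpgds, the haematopoietic prostaglandin D2 synthase of mast cells and macrophages, rose by 3.85 on the log2 scale in SMOC2 (edgeR adjusted p = 1.26e-06) and by 2.93 in WT (edgeR adjusted p = 8.46e-06), so both prostaglandin D2 synthases were higher after UUO. The sum of 5 mast cell markers was 33.9 to 45.1 CPM in SMOC2 UUO against 26.2 to 34.9 CPM in SMOC2 normal, and 33.0 to 40.3 CPM in WT UUO against 22.3 to 31.4 CPM in WT normal libraries. Nearly all of it was Kit, which other kidney cells also express and which rose by 0.46 on the log2 scale in SMOC2 (edgeR adjusted p = 0.0105) and by 0.42 in WT (edgeR adjusted p = 0.0183). The mast cell tryptase gene Tpsb2 averaged 0.255 CPM in SMOC2 UUO against 1.62 CPM in SMOC2 normal libraries, and 0.162 CPM in WT UUO against 0.821 CPM in WT normal libraries. It fell by 2.66 on the log2 scale in SMOC2 (edgeR adjusted p = 6.86e-04) and by 2.28 in WT (edgeR adjusted p = 0.00431). Cpa3, Mcpt4 and Cma1 were at 0 to 0.303 CPM in all libraries, and the part of mast cells was not tested. Ptges2, a membrane-bound prostaglandin E synthase, fell by 0.98 in SMOC2 (edgeR adjusted p = 5.79e-07) and by 0.91 in WT (edgeR adjusted p = 1.26e-06). The cytosolic synthase gene Ptges3 was at 0.06 in SMOC2 and -0.05 in WT, and the thromboxane synthase gene Tbxas1 at -0.12 in SMOC2 and -0.27 in WT, none of them past the threshold (edgeR adjusted p from 0.196 to 0.780).

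Of the other receptors, 3 of 5 could be tested, and 2 rose and 1 fell in both labels. Ptgir, the prostacyclin receptor, rose by 2.404 in SMOC2 (edgeR adjusted p = 1.03e-06) and by 1.85 in WT (edgeR adjusted p = 8.52e-06) on the log2 scale. Ptger2, which encodes the EP2 receptor and raises cAMP as EP4 does, rose by 1.67 in SMOC2 (edgeR adjusted p = 0.0122, ranges overlapping) and by 2.24 in WT (edgeR adjusted p = 0.00124), at means of at most 1.29 CPM. The thromboxane receptor gene Tbxa2r fell by 0.96 in SMOC2 (edgeR adjusted p = 0.00134) and by 0.85 in WT (edgeR adjusted p = 0.00338). Ptgdr2, a prostaglandin D2 receptor, had 0 to 7 counts per library and was not tested.

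Of 5 transport and inactivation genes, 2 fell in both labels, and 1 more, Ptgr1, rose in WT. The 2 that fell were Ptgr2 and Zadh2, named after their values were seen. On the log2 scale Ptgr2 was at -1.39 in SMOC2 (edgeR adjusted p = 5.76e-07) and -1.34 in WT (edgeR adjusted p = 8.87e-07). Zadh2 was at -0.56 in SMOC2 (edgeR adjusted p = 6.71e-05) and -0.60 in WT (edgeR adjusted p = 3.81e-05). Ptgr1, a reductase acting after Hpgd, was at 0.55 in SMOC2 (edgeR adjusted p = 0.0568) and rose by 0.68 in WT (edgeR adjusted p = 0.0201) on the log2 scale. Its ranges were apart in SMOC2 and overlapped in WT. WT UUO library 1 was at 23.5 CPM, against 11.1, 15.3 and 11.6 CPM in WT UUO libraries 2, 3 and 4. The prostaglandin transporter gene Slco2a1 was at 0.14 in SMOC2 and -0.11 in WT and the efflux pump gene Abcc4 at 0.03 in SMOC2 and 0.04 in WT, and none of these passed (edgeR adjusted p from 0.374 to 0.874).

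The neighbouring leukotriene branch was followed in 10 genes, of which 9 were tested, with 4 higher and 1 lower in both labels. Alox5ap, the activating protein of 5-lipoxygenase, rose by 3.16 in SMOC2 (edgeR adjusted p = 6.81e-08) and by 3.01 in WT (edgeR adjusted p = 8.39e-08) on the log2 scale. Cysltr1, a cysteinyl leukotriene receptor, rose by 2.94 in SMOC2 (edgeR adjusted p = 7.09e-08) and by 3.46 in WT (edgeR adjusted p = 2.86e-08). Alox5, the 5-lipoxygenase itself, rose by 1.14 in SMOC2 (edgeR adjusted p = 0.00515) and by 1.16 in WT (edgeR adjusted p = 0.00439). Ltb4r1, a leukotriene B4 receptor, rose by 1.97 in SMOC2 (edgeR adjusted p = 4.79e-04) and by 2.34 in WT (edgeR adjusted p = 1.51e-04). Alox15 had 0 to 7 counts per library and was not tested.

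**Figure D4:**
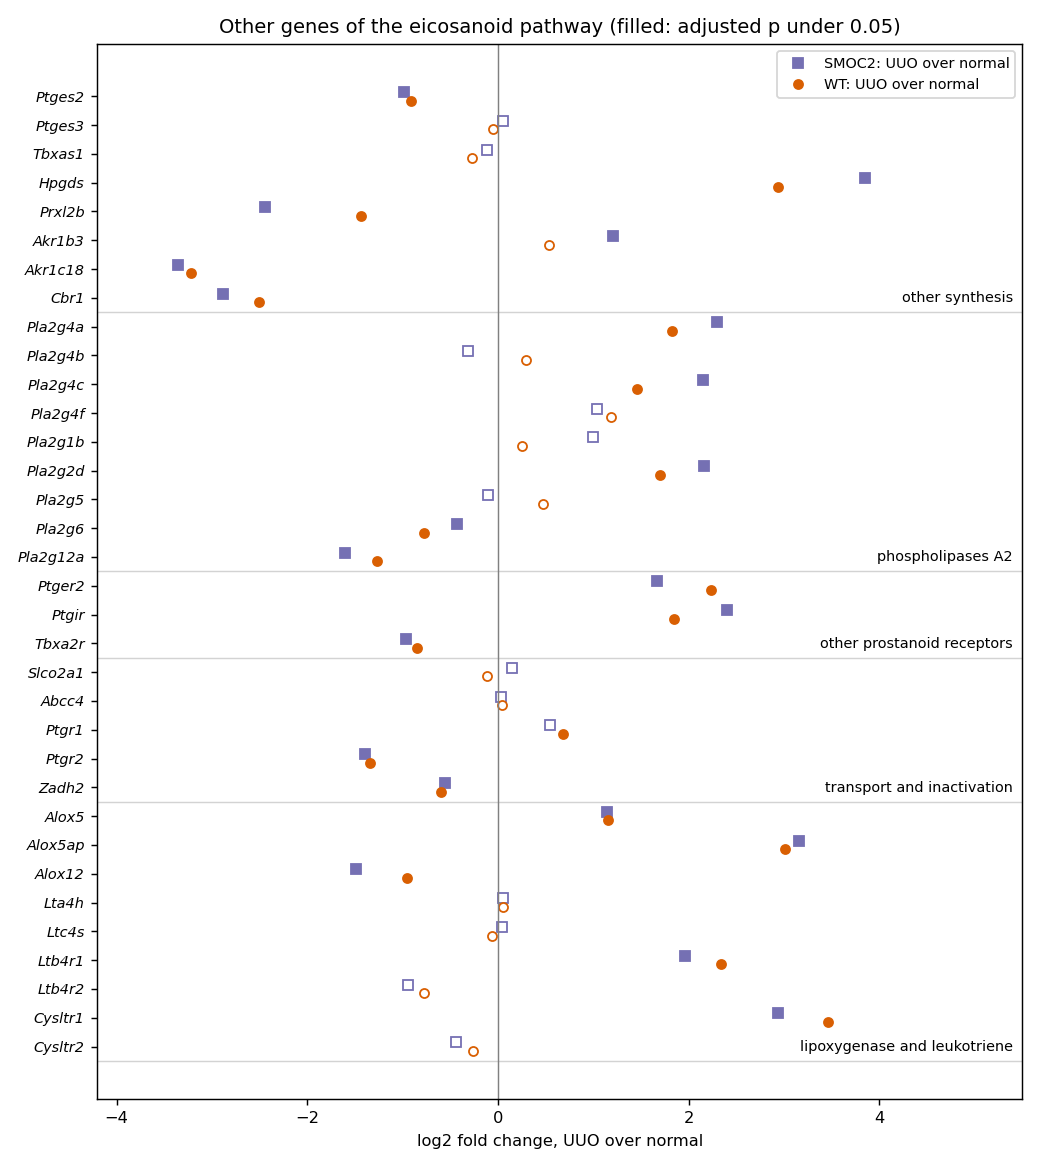
Log2 fold change of UUO over normal kidney (x axis) for the 34 other pathway genes tested, in SMOC2 (squares) and WT (circles), filled where the adjusted p was under 0.05 and grouped by list. Hpgds, at 3.85 in SMOC2 and 2.93 in WT, and Alox5ap and Cysltr1 lie at the right. Akr1c18, at -3.36 in SMOC2 and -3.21 in WT, lies furthest to the left, followed by Cbr1 and Prxl2b. Ptges2 and Tbxa2r also lie to the left of 0 in both labels.

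Between genotype labels, no member passed the test. In SMOC2 UUO against WT UUO kidney, 0 of 10 members were called by edgeR, DESeq2 or limma-voom, beside 0.831% of all genes by edgeR, and 2, 3 and 2 members had an unadjusted p under 0.05 by those tools. In SMOC2 normal against WT normal kidney it was again 0 of 10 by all 3 tools, beside 0.0279% of all genes by edgeR, with 1, 1 and 0 at an unadjusted p under 0.05. The comparison of the 2 UUO responses, the interaction, called 0 of 10 by each tool and 0% of all genes by edgeR (25 genes by DESeq2 and 0 by limma-voom), with 1 member at an unadjusted p under 0.05 by each. Over all genes, edgeR's unadjusted p was under 0.05 for 15.2% in UUO kidney, 12.8% in normal kidney and 6.44% in the interaction, and the members' 2, 1 and 1 of 10 are near those shares.

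In UUO kidney the members nearest to a call were Ptges, at a log2 difference of SMOC2 from WT of -0.34 (95% interval -0.66 to -0.03, edgeR adjusted p = 0.278), and Ptger1, at -0.20 (95% interval -0.39 to -0.01, edgeR adjusted p = 0.292). All 5 principal cell markers of the collecting duct also had lower estimates in SMOC2 UUO than in WT UUO kidney, at a median log2 difference of -0.79 with 0 of 5 called by edgeR and 3 of 5 at an unadjusted p under 0.05. Their sum was 72.6 to 152 CPM in SMOC2 UUO against 146 to 272 CPM in WT UUO libraries, and its part was not tested. Lower medians were not particular to this list. Median log2 differences were -0.43 for thick limb, -0.41 for distal convoluted tubule and -0.34 for intercalated cell markers. They were -0.56 for urothelial and 0.22 for proximal tubule markers, and no marker of these lists was called. In normal kidney the member nearest to a call was Ptger4, at -0.36 (95% interval -0.70 to -0.03, edgeR adjusted p = 0.362). Ptgfr, at -0.53 on the log2 scale (edgeR adjusted p = 0.474), and Ptgds, at 0.37 (edgeR adjusted p = 0.611), were not called either.

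The interaction of Ptger1 was -0.36 (95% interval -0.65 to -0.08, unadjusted p = 0.0168, edgeR adjusted p = 0.712). For the members called in 1 label alone the interaction was -0.15 for Ptgs1 (95% interval -0.58 to 0.27) and 0.68 for Ptgis (95% interval -0.21 to 1.56), so a difference between the responses was not detected. The interval for Ptgs2 runs from -0.56 to 2.57, so a much larger response in SMOC2 lies within it at this depth. For Ptger3 it runs from -0.71 to 0.63 around -0.04, and for Ptger4 from -0.14 to 0.70 around 0.28.

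**Figure D5:**
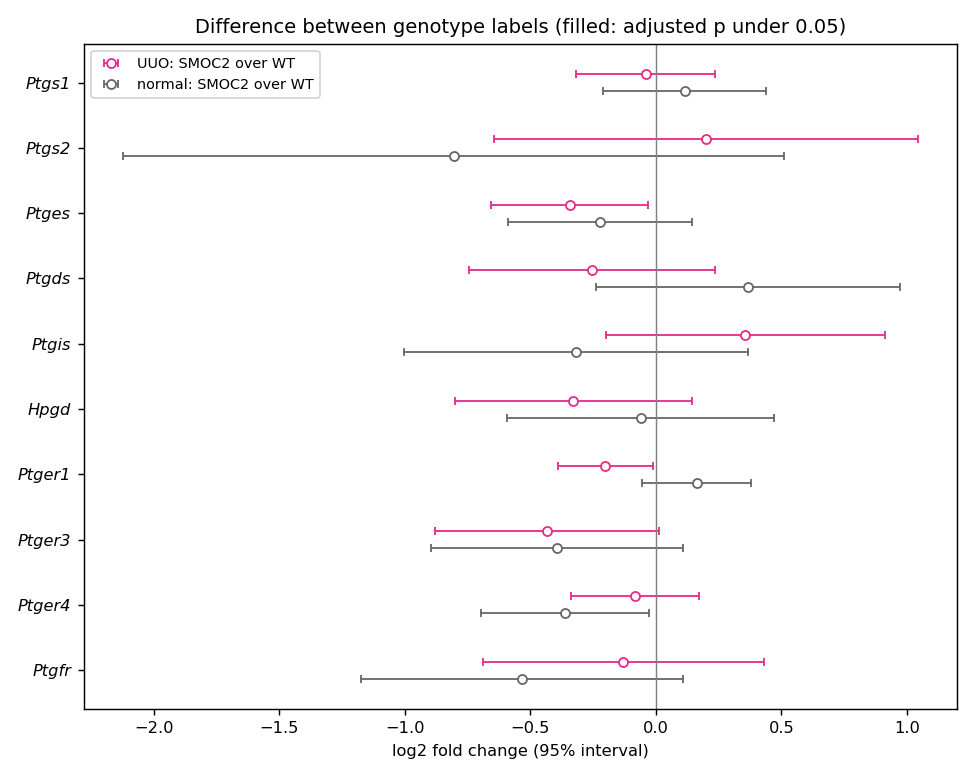
Log2 difference of SMOC2 from WT libraries (x axis) with its 95% interval for each gene, in UUO (upper point) and normal (lower point) kidney, all open because no adjusted p was under 0.05. The widest interval is that of Ptgs2 in normal kidney, from -2.12 to 0.51.

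Of the other pathway genes, 2 of 34 were called between labels in UUO kidney, beside 0.831% of all genes by edgeR. In normal kidney and in the interaction, 0 were called. Slco2a1, the prostaglandin transporter gene, was at 151.8, 108.9, 103.2 and 117.8 CPM in SMOC2 UUO libraries, against 77.5, 79.4, 68.5 and 81.7 CPM in WT UUO libraries. The groups did not overlap, and the log2 difference was 0.65 (SE 0.13, edgeR adjusted p = 0.0325). Pla2g6, a calcium-independent phospholipase A2 named after its values were seen, was at 39.9, 44.0, 44.9 and 39.8 CPM in SMOC2 UUO libraries, against 28.6, 33.0, 31.4 and 29.4 CPM in WT UUO libraries. Its log2 difference was 0.46 (SE 0.07, edgeR adjusted p = 0.0112). Slco2a1 and Pla2g6 also stood higher in SMOC2 than in WT normal libraries, without a call. Slco2a1 was at 105.8 to 112.9 CPM in SMOC2 normal and 67.1 to 96.75 CPM in WT normal libraries. Pla2g6 was at 54.3 to 59.7 CPM in SMOC2 normal and 50.2 to 53.6 CPM in WT normal libraries. Slco2a1 and Pla2g6 together were 2 genes called with all libraries in the fit, and 0 genes of the lists were called with only the UUO libraries in it. Leaving out single UUO libraries left 1 or 2 called, with 1 without SMOC2 UUO library 1 or 2 or any 1 of the 4 WT UUO libraries.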

How the data were processed

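Per the labels' protocols, total RNA of frozen kidney was made into stranded messenger RNA libraries. Alignment tools named in the submitters' processing notes are STAR 2.4.1d and, from the Subread package, featureCounts 1.4.4, with build mm10. How strand was set and which annotation was counted is not given in the sources used here. Each deposited file gives whole-number raw counts by gene, which the authors did not normalize. Symbols, coordinates and exon lengths came from GENCODE M21 (47310 of 47729 identifiers matched), and promoter windows from RefSeq. Levels are CPM on library sizes scaled by trimmed mean of M-values.

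In R 4.3.3, edgeR 4.0.16 kept 17926 genes (filterByExpr) and fitted the 4 group means to all 14 libraries (glmQLFit, glmQLFTest). P-values were adjusted by Benjamini-Hochberg over those genes, with a call under 0.05, and intervals cover 95%. The 5 comparisons set UUO against normal kidney in each label and SMOC2 against WT in each state, with the interaction. All members are named, with 17 pathway genes set by list whatever they show. The members, lists and named genes were chosen with earlier results of these data known. The other settings tried were scaling by median ratio or upper quartile, no filter, at least 50 counts in 3 libraries, DESeq2 1.42.0, voom of limma 3.58.1, a replicate block, fits on the compared groups alone, and fits without each library. Scaling by library totals alone was added after seeing the data. Amplified reads are not independent molecules, so counting ranges cover counting error only. The libraries of a group differed by more than sampling noise and were counted as separate samples. 1 item is not reported here.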

Additional observations from a re-analysis of the deposited data

Results flagged for a closer look

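Among 56 groups of 4 libraries examined gene by gene, 1 held a library far from the other three. Smoc2 in SMOC2 UUO library 1 was at 123.6 CPM, with the others of that group at 83.9, 87.1 and 89.9 CPM, a gap of 0.849 of the range. Chance gives such a gap in about 1 of 20 groups.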

How the results depend on the processing

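The number of members called stayed at 8 with SMOC2 UUO against SMOC2 normal in every alternative other than leaving out single libraries, and ran from 6 to 10 with WT UUO against WT normal, where 7 were called at first. Leaving out single libraries gave 7 to 8 in SMOC2 and 6 to 8 in WT. The same count of 8 in SMOC2 held other members: with upper quartiles Ptgs1 was gained and Ptgfr lost, and with library totals alone Ptgs1 and Ptges were gained and Ptger1 and Ptgfr lost. No member was called between labels or in the interaction under any alternative run. The 5 members Ptgs2, Ptgds, Hpgd, Ptger3 and Ptger4 kept their direction and call in both labels under every alternative, and Ptgfr did in WT. With the replicate block, 8 members were called in each label, and Ptgis passed in WT at 0.68 (edgeR adjusted p = 0.00784). Same-numbered libraries did not all deviate together (correlations from -0.135 to 0.186, above 0.1 in 3 of 18 pairs), and libraries correlated best with their own number in 12 of 36 cases, so the numbers were not taken as pairs.

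Of the pathway lists, 0 genes were called in SMOC2 UUO against WT UUO with only those groups in the fit, and 1 to 2 without single libraries. In SMOC2 normal against WT normal, 0 to 1 were called without single libraries. The sign of Ptger1 in WT UUO against WT normal turned with library totals alone (0.27), which moved the median of all genes to 0.52 in WT. The Ptger3 interaction turned there (0.001021) and with the replicate block (0.007978). Without single libraries, log2 differences of SMOC2 from WT ran from -0.103 to 0.0210 for Ptgs1, -0.0825 to 0.481 for Ptgs2 and -0.32 to 0.12 for Ptgfr in UUO kidney. They ran from -0.0687 to 0.292 for Ptgs1 and -0.24 to 0.26 for Hpgd in normal kidney, and interactions from -0.333 to 0.0282 for Ptgs1 and -0.18 to 0.15 for Ptger3. The cause of these other turns was not tested.

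Scaling moved the median of all genes. It lay at 0.04 in SMOC2 and 0.05 in WT with trimmed means, at 0.15 in SMOC2 and 0.16 in WT with upper quartiles, and at 0.54 in SMOC2 and 0.52 in WT with library totals alone. Of genes called, 51.6% in SMOC2 and 51.2% in WT were higher in UUO with trimmed means, 59.6% in SMOC2 and 59.2% in WT with upper quartiles, and 78.7% in both with totals. With totals alone, Ptges and Ptgs1 passed as higher in both labels. Over all genes, 149 were called in SMOC2 UUO against WT UUO, 757 by DESeq2, 232 by voom, 69 with the block and 39 with only those groups. In normal kidney, 5 were called, against 172 by DESeq2. Depth limits Ptgs2 most, with under 30 counts in every normal library.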
